A study of Homo sapiens with 16 samples.

Results

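The genes described here are the 5 DNA-binding subunits of the transcription factor NF-kappaB (NFKB1, NFKB2, RELA, RELB and REL) and 5 genes for inhibitors and feedback proteins of the same pathway (NFKBIA, NFKBIB, NFKBIZ, TNFAIP3 and BIRC3). They were chosen by name, and their identifiers were matched to symbols with GENCODE. These 10 genes were among the 60649 listed in the deposited count table, and all 10 passed the filter on low counts, which left 19103 genes for testing. Poly(A) RNA of ASC52telo, a single line of human adipose mesenchymal stem cells (MSCs) immortalized with telomerase reverse transcriptase, was sequenced in 16 libraries. The cells of all 4 groups were of this 1 line, so the replicates are cultures and not donors. The young groups, MmC-/GDF11- and MmC-/GDF11+, had no mitomycin C. The senescent groups, MmC+/GDF11- and MmC+/GDF11+, had been kept for 18 h in 1.5 µg/mL of mitomycin C (MmC), an agent that alkylates and crosslinks DNA. In the 2 GDF11+ groups recombinant growth differentiation factor 11 (GDF11), a cytokine of the TGF-beta family, was present at 10 ng/mL over the next 10 days, and each group had 4 biological replicates.

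NF-kappaB is a pair of subunits held in the cytoplasm by IkB proteins until a kinase complex, IKK, marks the IkB protein for destruction. The pair then enters the nucleus and switches on genes of inflammation and survival, among them the genes of its own inhibitors, which close a negative feedback loop. In the canonical route the pair is mostly RELA with p50, cut from the NFKB1 protein, and in the slower non-canonical route it is RELB with p52, cut from the NFKB2 protein. In senescent cells the pathway is known as a driver of the secreted inflammatory factors.

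NF-kappaB binds a short DNA element, the kappaB site, and the sequences shown here were chosen because such elements stand close to the starts of the members themselves. The 250 bases before each RefSeq start (GRCh38.p14) were searched on both strands for the 10-base kappaB consensus. It was present before 8 of the 9 members with an entry, the exception being RELA, against 11.8% of all 27305 genes with an entry. Counted by starts, since a gene can have several, it stood before 10 of 15 starts of the members (66.7%) and before 9.96% of all starts. NFKB1, NFKB2 and NFKBIB each also had a start without it, and their windows below stand before another of their starts. Of the 25 listed target genes with an entry, 14 had it. The windows below are written 5′ to 3′ on the gene's own strand, with the consensus in capitals, and matches that overlap are drawn as 1 run.
TNFAIP3: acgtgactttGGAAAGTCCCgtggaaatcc
TNFAIP3: aaagtcccgtGGAAATCCCCgggcctacaa
NFKBIA: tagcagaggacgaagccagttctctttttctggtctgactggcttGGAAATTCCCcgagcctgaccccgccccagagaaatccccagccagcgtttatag
BIRC3: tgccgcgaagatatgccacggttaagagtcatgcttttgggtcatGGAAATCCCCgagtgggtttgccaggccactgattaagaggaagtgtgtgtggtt
NFKBIZ: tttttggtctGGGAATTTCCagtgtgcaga
NFKBIB: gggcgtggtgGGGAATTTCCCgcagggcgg
NFKB1: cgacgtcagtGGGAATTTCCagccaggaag
NFKB2: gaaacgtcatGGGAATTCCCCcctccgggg
REL: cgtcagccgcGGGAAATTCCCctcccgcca
The 2 TNFAIP3 windows overlap, lie at chr6:137867182-137867211 and chr6:137867194-137867223 on the plus strand, and hold 2 separate matches that begin 67 and 55 bases before the RefSeq start. The NFKBIA window lies at chr14:35404776-35404875 on the minus strand, before the annotated gene, and its match begins 81 bases before the start. The BIRC3 window lies at chr11:102317240-102317339 on the plus strand, also before the annotated gene, with the match 199 bases from the start and a further match at 135 bases. The other windows lie on the plus strand at chr3:101827757-101827786 for NFKBIZ, chr19:38899931-38899960 for NFKBIB, chr4:102501300-102501329 for NFKB1, chr10:102394461-102394490 for NFKB2 and chr2:60881517-60881546 for REL, and each of these 5 overlaps an exon annotated by GENCODE v44. Exons of any gene on either strand were counted. NFKBIZ begins at 101827991 and NFKB1 at 102501330, after their windows, so the exons there belong to other genes. The TNFAIP3 window at chr6:137867194-137867223 also overlaps an annotated exon. A single word, GGGAATTTCC, read on either strand, stood before 5 members (NFKB1, REL, NFKBIA, NFKBIB and NFKBIZ) and before 48 of all 27305 genes, or 0.176%. That word was searched after the matches had been seen and was chosen as the commonest consensus word before the members. Its share among the members is therefore no evidence of its own. Of the 25 listed target genes with an entry, 4 had it (16.0%). A match describes letters in the window and does not show that a factor was bound there.

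Between 71275337 and 144204979 counts were assigned to genes in a library, and each member had at least 110 counts in every library. All 5 MSC markers (NT5E, THY1, ENG, CD44 and ITGB1) were counted in all libraries, with a summed level of 4735 to 6428 CPM (counts scaled to the size of the library). The 7 leukocyte markers summed to 1.77 to 2.9 CPM in the MmC- libraries and to 3.2 to 5.82 CPM in the MmC+ libraries. CD3E was at or near 0. On alternate contigs 58.9% of the PTPRC sequence and 16.0% of the LYZ sequence recur. Exons annotated for a different gene on the same strand cover 81.6% of CD68. Low counts of PTPRC, LYZ and CD68 therefore do not show that these genes were silent. Of the 4 leukocyte markers tested, 3 were called higher for MmC without and 4 with GDF11. Of the 5 MSC markers 2 were called higher without and 3 with GDF11, and none was called lower. Among all genes tested 22.9% were called higher and 22.4% lower for MmC without GDF11, and 23.4% and 23.3% with it. The 4 epithelial markers, mostly KRT14, summed to 48.7 to 82.3 CPM in MmC- and 12.5 to 20.7 CPM in MmC+ libraries, with EPCAM and KRT5 at or near 0. Of the 2 epithelial markers tested 1 was called lower in each MmC comparison. The 5 endothelial markers, mostly TEK, summed to 47.5 to 82.4 CPM in MmC- and 54.4 to 111 CPM in MmC+ libraries, and 3 were called higher and 1 lower for MmC without GDF11 and 2 higher and 1 lower with it. The 4 adipocyte markers summed to 0.0536 to 0.26 CPM in MmC- and 0.366 to 1.5 CPM in MmC+ libraries, with ADIPOQ at or near 0, and of the 3 tested 1 was called higher without and 2 with GDF11. The mitochondrial share of counts was higher in MmC+ libraries, at 3.55% to 4.73% against 1.58% to 3.11%. The part of these markers and of this share in the results was not tested. Replicate 1 lay farthest from its group's mean in each of the 4 groups, by 0.496 and 0.509 (root mean square of log2 CPM over all genes tested) in the MmC+ groups against 0.262 to 0.321 for the other MmC+ libraries. Results that rest on replicate 1 are therefore given with and without it.

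Senescent MSCs without GDF11 had more transcript of 8 of the 10 members than young MSCs without GDF11. These were 3 of the 5 subunits (NFKB2, RELA and RELB) and all 5 inhibitors and feedback genes, and none of the 10 was called lower. Among all 19103 genes 22.9% were called higher at an adjusted p of 0.05 (edgeR quasi-likelihood test, Benjamini-Hochberg), 22.4% were called lower and 45.3% were called in either direction. The median log2 fold change was 1.19 over the 10 members, 0.69 over the subunits and 2.31 over the inhibitors, against -0.01 over all genes tested. For the same 8 genes every MmC+/GDF11- library lay above every MmC-/GDF11- library, which was so for 19.1% of all genes tested. With GDF11 in both groups the same 8 genes were called higher and did not overlap, where 23.4% of all genes were called higher, 23.3% lower and 46.7% in either direction, and 20.2% did not overlap with the senescent libraries higher. The median over the members was then 1.21. Since the libraries are of bulk RNA, a change in the number of expressing cells and a change in the transcript per cell cannot be told apart.

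**Figure D1:**
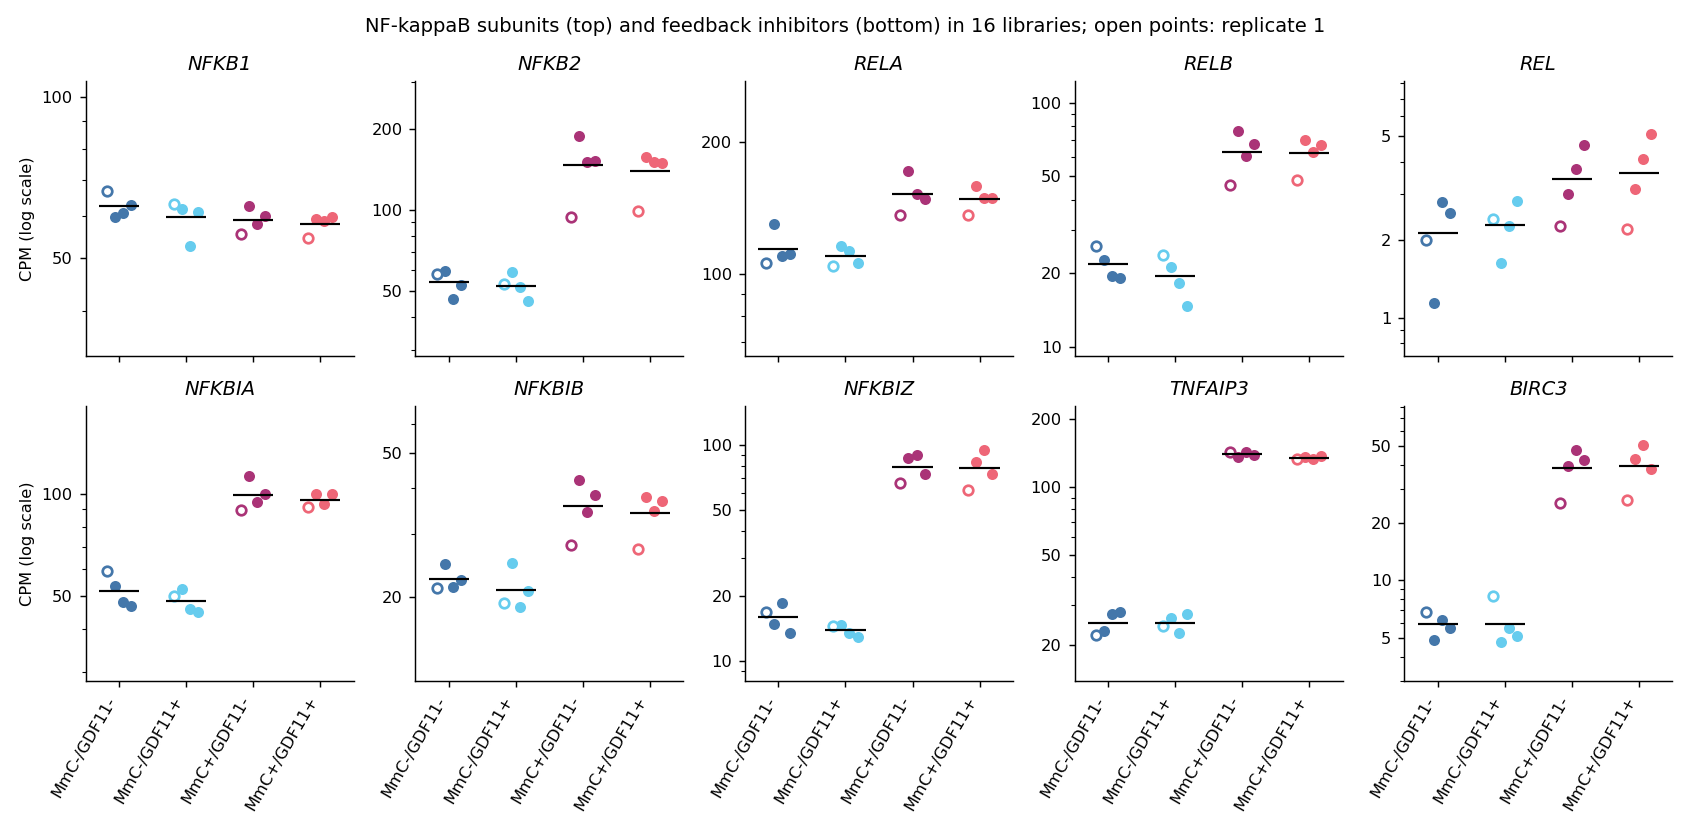
CPM (log scale, its range set for each gene) of the 5 subunits (top) and the 5 inhibitors and feedback genes (bottom) in the 16 libraries, by group, with the group mean as a line and replicate 1 as an open point. The MmC+ points lie above all MmC- points for every gene but NFKB1 and REL, and GDF11- and GDF11+ points overlap throughout.

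Of the subunits, RELB had the largest log2 fold change. RELB (chr19:45001461-45038192) encodes the partner of p52 in the non-canonical route. Its level was 25.8, 22.6, 19.6 and 19.2 CPM in MmC-/GDF11- replicates 1 to 4 and 46.2, 76.6, 60.7 and 67.6 CPM in MmC+/GDF11-. With GDF11 the levels were 23.8, 21.3, 18.2 and 14.7 CPM in young and 48.3, 70.4, 62.9 and 67.3 CPM in senescent MSCs. The lowest senescent library, replicate 1 in both groups, was still above the highest young one. The log2 fold change for MmC was 1.52 without GDF11 (95% interval 1.16 to 1.89, edgeR adjusted p = 5.22e-06) and 1.68 with GDF11 (1.31 to 2.04, adjusted p = 2.24e-06), or 2.88-fold and 3.19-fold.

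NFKB2 (chr10:102394110-102402524), the precursor of p52, rose by a similar amount. The 4 libraries of MmC-/GDF11- were at 57.6, 59.2, 46.5 and 52.8 CPM, and those of MmC+/GDF11- at 94.6, 189, 151 and 152 CPM. In the GDF11+ groups NFKB2 was at 52.9, 58.6, 51.6 and 45.8 CPM in young cells and at 99.6, 158, 151 and 150 CPM in senescent cells. Replicate 1 had the lowest value of both senescent groups, and no senescent library overlapped the young range. The log2 fold changes were 1.44 (95% interval 1.06 to 1.82, edgeR adjusted p = 1.34e-05) without and 1.42 (1.04 to 1.80, adjusted p = 1.51e-05) with GDF11. The fitted differences of the 2 partners of the non-canonical pair thus ran from 2.68-fold to 3.19-fold.

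RELA (chr11:65653599-65663090) carries a strong activation domain and is the best studied subunit. Young libraries without GDF11 held 106, 130, 110 and 111 CPM, and senescent ones 136, 172, 152 and 148 CPM. With GDF11 the values were 104, 116, 113 and 106 CPM against 136, 159, 149 and 149 CPM. The groups did not overlap in either comparison, and the change was small, with a log2 fold change of 0.41 (95% interval 0.22 to 0.60, edgeR adjusted p = 0.00165) without and 0.44 (0.24 to 0.63, adjusted p = 0.00103) with GDF11.

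NFKB1 (chr4:102501330-102617302), the precursor of p50, did not pass the test in either comparison. Its level was 66.8, 59.7, 60.8 and 62.9 CPM in MmC-/GDF11- and 55.6, 62.5, 58.0 and 59.9 CPM in MmC+/GDF11-, and with GDF11 63.0, 61.7, 52.7 and 61.0 CPM against 54.5, 59.3, 58.7 and 59.8 CPM. The ranges overlapped, and the log2 fold change was -0.08 (95% interval -0.24 to 0.07, edgeR adjusted p = 0.379) without and -0.04 (-0.20 to 0.12, adjusted p = 0.701) with GDF11. The intervals leave room for a log2 fold change down to -0.24 and up to 0.12.

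REL (chr2:60881491-60931612), the subunit best known from lymphocytes, was the least abundant member. It was at 2.00, 1.14, 2.80 and 2.53 CPM in MmC-/GDF11- and at 2.26, 3.01, 3.76 and 4.63 CPM in MmC+/GDF11-, so the groups overlapped. With GDF11 it was at 2.40, 1.62, 2.26 and 2.81 CPM in young and at 2.19, 3.14, 4.08 and 5.11 CPM in senescent cells. The log2 fold changes of 0.69 (95% interval 0.05 to 1.32, edgeR adjusted p = 0.0712) and 0.68 (0.04 to 1.31, adjusted p = 0.0747) missed the threshold. With the replicate number as a block REL passed it in edgeR, at 0.70 (adjusted p = 0.00586) without and 0.64 (adjusted p = 0.00968) with GDF11. The labels do not say whether equal numbers pair the libraries. The blocked fit called more genes in general, 57.9% and 59% of all genes tested. Leaving out each library in turn gave 0.49 to 0.86 without GDF11 (edgeR adjusted p = 0.0305 to 0.202) and 0.48 to 0.86 with it (0.0238 to 0.224). The value was past the threshold without MmC+/GDF11- replicate 1 (0.85), MmC-/GDF11- replicate 3 (0.86, adjusted p = 0.0472) or MmC+/GDF11+ replicate 1 (0.86). It was lowest without MmC-/GDF11- replicate 2 (0.49) and without MmC+/GDF11+ replicate 4 (0.48). REL shares 33.3% of its exonic sequence with a lncRNA of the same strand that had 0 counts in all libraries, and 13.7% of its sequence is repeated on alternate contigs, so its level is the least certain of the 10.

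**Figure D2:**
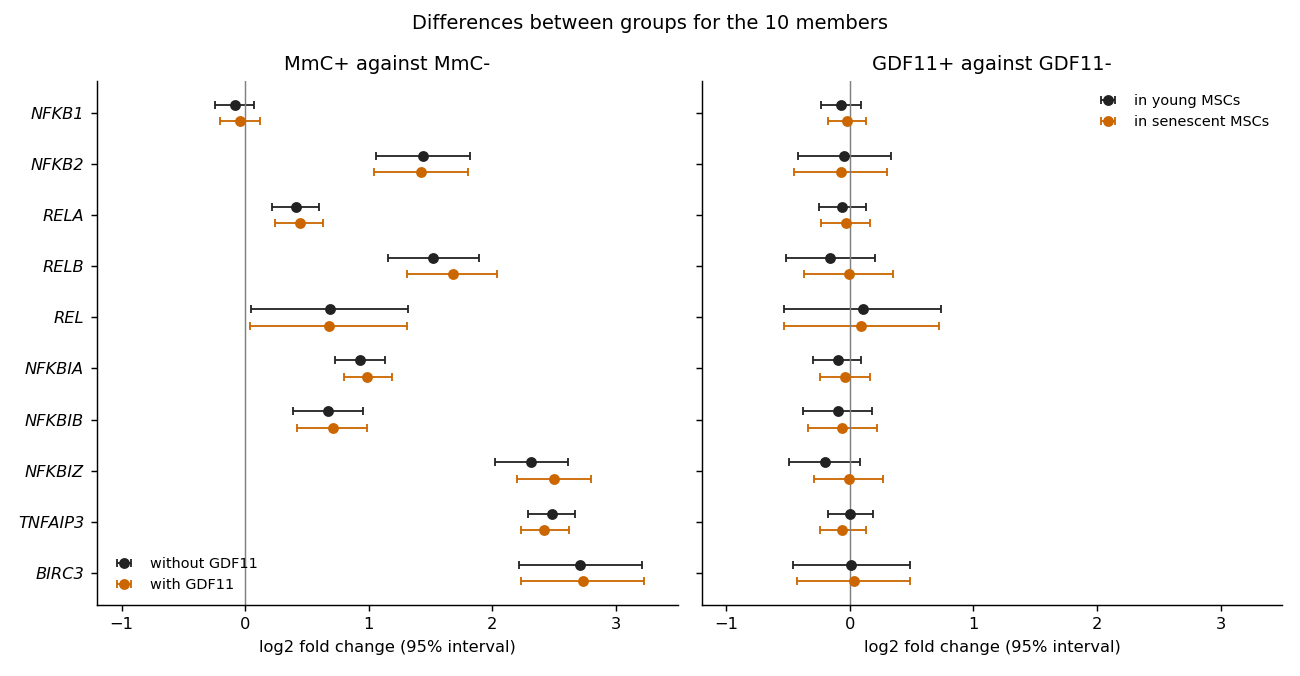
log2 fold change with its 95% interval (x axis) for each member, for MmC without and with GDF11 (left) and for GDF11 in young and in senescent MSCs (right), on the same scale. On the left the 8 called members lie between 0.41 (RELA) and 2.73 (BIRC3), and the intervals of REL, which are not adjusted for the number of genes, end just above 0. On the right every interval includes 0.

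The inhibitors and feedback genes all rose. BIRC3 (chr11:102317484-102339403) encodes cIAP2, a ubiquitin ligase at the TNF receptor that favours canonical signalling and, with its close relative cIAP1, holds the non-canonical route in check. Its level was 6.85, 4.89, 6.19 and 5.66 CPM in MmC-/GDF11- and 25.4, 39.2, 47.8 and 42.1 CPM in MmC+/GDF11-. With GDF11 it was 8.25, 4.77, 5.62 and 5.10 CPM in young and 26.1, 42.9, 50.4 and 38.1 CPM in senescent MSCs. The lowest senescent library, replicate 1 in both groups, lay far above the highest young one. The log2 fold changes, 2.71 (95% interval 2.22 to 3.21, edgeR adjusted p = 4.39e-07) and 2.73 (2.23 to 3.23, adjusted p = 4.56e-07), were the largest of the 10 members. BIRC2, which encodes cIAP1, stood at 58.1 ± 6.68 CPM (SD, n = 4) in MmC-/GDF11- and 57.2 ± 5.31 CPM in MmC+/GDF11-, and its log2 fold change was -0.02 (edgeR adjusted p = 0.876).

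TNFAIP3 (chr6:137867214-137883314), which encodes A20, a ubiquitin-editing enzyme that shuts off IKK activation, had the smallest spread in the senescent groups. Young libraries held 22.1, 23.0, 27.3 and 28.1 CPM without and 24.2, 26.3, 22.5 and 27.5 CPM with GDF11. Senescent libraries held 143, 136, 143 and 139 CPM without and 133, 136, 133 and 137 CPM with GDF11. The coefficient of variation in the senescent groups was 2.36% and 1.67%, against 26.6% for NFKB2, 24.6% for BIRC3 and 29.7% for REL in MmC+/GDF11-. For NFKB1 it was 4.9% in MmC+/GDF11- and 4.19% in MmC+/GDF11+, for RELA 10% and 6.44%, and for NFKBIA 10.1% and 4.76%. The other members lay between 13.8% and 20.5% in MmC+/GDF11-. The log2 fold change was 2.48 (95% interval 2.29 to 2.67, edgeR adjusted p = 5.79e-11) without and 2.42 (2.23 to 2.62, adjusted p = 8.11e-11) with GDF11, or 5.58-fold and 5.37-fold.

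NFKBIZ (chr3:101827991-101861022) encodes IkB-zeta, a nuclear member of the IkB family that is needed for the induction of a subset of secondary inflammatory genes. Without GDF11 it was at 16.8, 14.8, 18.6 and 13.5 CPM in young and 66.6, 86.8, 89.3 and 73.0 CPM in senescent MSCs. With GDF11 the values were 14.5, 14.6, 13.4 and 12.9 CPM against 61.5, 83.6, 94.1 and 73.5 CPM. The groups were far apart, at a log2 fold change of 2.31 (95% interval 2.02 to 2.61, edgeR adjusted p = 1.02e-08) and 2.50 (standard error 0.14, adjusted p = 4.71e-09).

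The cytoplasmic inhibitors changed less. NFKBIA (chr14:35401079-35404749) encodes IkB-alpha, the inhibitor that is degraded and remade in each round of canonical signalling. It was at 59.4, 53.5, 48.1 and 46.9 CPM in MmC-/GDF11- and at 89.5, 113, 94.4 and 100 CPM in MmC+/GDF11-. With GDF11 it was at 50.2, 52.4, 46.0 and 45.1 CPM against 91.6, 100, 93.4 and 100 CPM. Its log2 fold change was 0.93 (95% interval 0.73 to 1.13, edgeR adjusted p = 1.55e-06) and 0.99 (0.80 to 1.19, adjusted p = 9.47e-07), close to a doubling, and no library overlapped. NFKBIB (chr19:38899700-38908893) encodes IkB-beta, which is remade more slowly. Its values were 21.3, 24.8, 21.4 and 22.3 CPM against 27.9, 42.1, 34.5 and 38.4 CPM without GDF11, and 19.3, 24.9, 18.8 and 20.9 CPM against 27.2, 37.9, 34.7 and 37.0 CPM with it. The senescent replicate 1 was the lowest of each senescent group and still above the young range, and the log2 fold changes were 0.67 (95% interval 0.39 to 0.95, edgeR adjusted p = 0.000755) and 0.71 (0.42 to 0.99, adjusted p = 0.000492). For NFKBIB, 11.0% of the sequence is repeated on alternate contigs.

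The levels of the members were set side by side per kilobase of the canonical transcript. In MmC-/GDF11- RELA led with 45.4 ± 4.31 CPM per kb (SD, n = 4), followed by NFKBIA with 33.3 ± 3.67 CPM per kb. NFKBIB, NFKB2 and NFKB1 followed at 18.8, 17.9 and 15.4 CPM per kb, and each overlapped its neighbour in this order. RELB stood at 9.66, TNFAIP3 at 5.38 and NFKBIZ at 4.06 CPM per kb, the last 2 overlapping, and BIRC3 at 0.857 and REL at 0.191 CPM per kb came last. In MmC+/GDF11- NFKBIA at 63.6, RELA at 60.3 and NFKB2 at 48.7 CPM per kb led, each overlapping the next. TNFAIP3 (29.2 to 30.7 CPM per kb over the 4 libraries), NFKBIB (23.4 to 35.3), RELB at a mean of 27.8 and NFKBIZ at 20.1 CPM per kb formed a second set of overlapping neighbours, above NFKB1 at 14.5, BIRC3 at 5.62 and REL at 0.307 CPM per kb. The order in the GDF11+ groups was the same as in the matching GDF11- groups. It depends on the length used: over the union of all exons NFKB1 fell from 15.4 to 3.99 CPM per kb in MmC-/GDF11- and stood next to TNFAIP3 at 3.90 CPM per kb.

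Within the summed level of the 5 subunits, the share of NFKB2 and RELB was larger in senescent cells and the share of RELA and NFKB1 smaller. RELA made up 51.2% ± 2.87 (SD, n = 4) in MmC-/GDF11- and 40.1% ± 3.36 in MmC+/GDF11-, although its own CPM was higher there. NFKB2 made up 20.2% ± 1.18 and 31.7% ± 3.74, RELB 10.9% ± 1.29 and 18.2% ± 1.04, and NFKB1 17.5% ± 1.46 and 9.74% ± 1.24. REL made up at most 0.32% in any library. For the 4 larger subunits no young library overlapped a senescent one. With the union of exons as length the shares of RELA were 49.8% and 35.6%, those of NFKB2 23.0% and 32.9%, those of RELB 17.3% and 26.4% and those of NFKB1 9.53% and 4.85%, so the direction was the same with either length. These shares describe transcripts and not proteins, and no test was made of them.

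**Figure D3:**
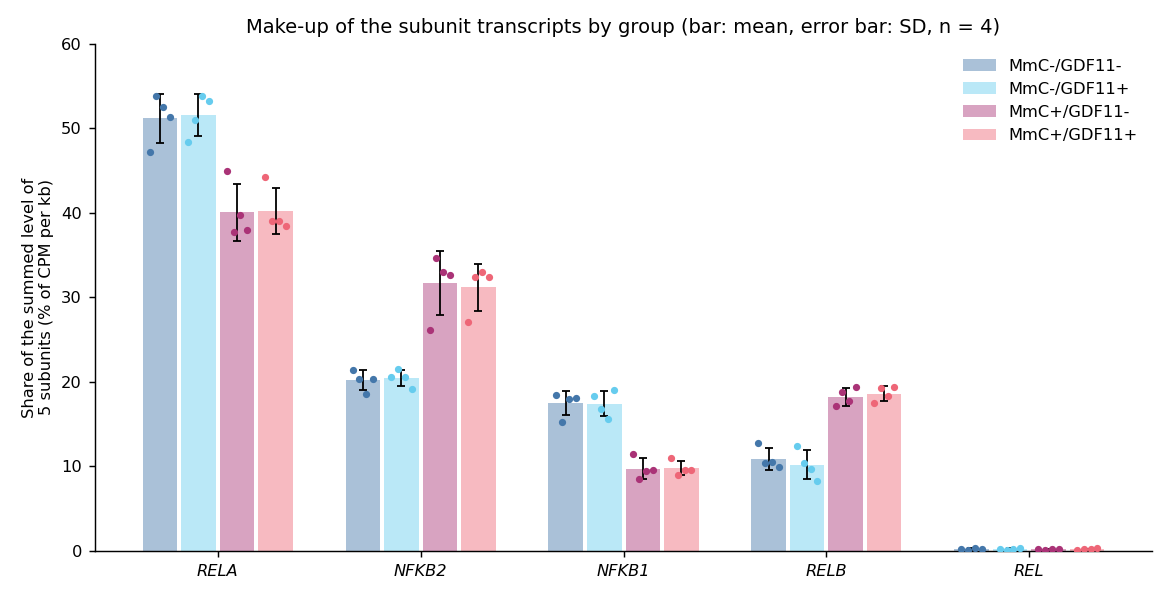
Share of each subunit in the summed level of the 5 subunits (percent of CPM per kb of canonical transcript), by group, as bars of the mean with the SD over 4 libraries and a point for each library. In the MmC+ groups RELA falls from 51.2% to 40.1% and NFKB1 from 17.5% to 9.74%, and NFKB2 and RELB take larger shares.

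Ratios within each library need no scaling between libraries. They were chosen after the values of the members had been seen. The ratio of NFKB2 to NFKB1 counts per kilobase of exon was 2.81-fold higher in MmC+/GDF11- than in MmC-/GDF11- and 2.71-fold higher in MmC+/GDF11+ than in MmC-/GDF11+. For RELB over RELA it was 2.14-fold and 2.37-fold higher, for NFKBIA over RELA 1.44-fold and 1.47-fold, and for BIRC3 over BIRC2 6.52-fold and 7.11-fold. In each of these 8 cases the senescent and the young libraries did not overlap, and the 2-sided exact permutation test gave p = 0.0286, the smallest that 4 against 4 libraries allow. Adjusted over the 16 ratio tests (Benjamini-Hochberg, exact permutation), p was 0.0571 in each case, so none of the 8 passed the threshold. With 8 of the 16 tests at the smallest p and the others above it, no lower adjusted value was possible, whatever the size of the ratios. The adjusted test could therefore not decide on them. Between the GDF11+ and GDF11- groups the ratios differed by between -0.14 and 0.03 on the log2 scale, with exact permutation p-values of 0.486 to 0.971.

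Replicate 1 of both senescent groups had lower values of most members than replicates 2 to 4. In MmC+/GDF11- it lay below its group's mean log2 CPM by -0.59 for NFKB2, -0.57 for BIRC3, -0.54 for REL and -0.42 for RELB. In MmC+/GDF11+ the same 4 genes were at -0.47, -0.55, -0.66 and -0.35. TNFAIP3 was within 0.03 of the mean in both replicates 1, and NFKB1, RELA and NFKBIA deviated by at most 0.16 in size. In the young groups replicate 1 did not have this pattern, with RELB at 0.25 and 0.31 and BIRC3 at 0.23 and 0.51. With replicate 1 of every group left out the 8 called members were called in both comparisons, and REL was called as well, at 0.82 (edgeR adjusted p = 0.0341) without and 0.88 (adjusted p = 0.0242) with GDF11. Of all genes tested 51.7% and 52.6% were called in that fit. The labels give the same run as the batch of all 16 libraries. The study names batch effects among its limits without saying which libraries they touched, and their part in the values of replicate 1 was not tested.

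**Figure D4:**
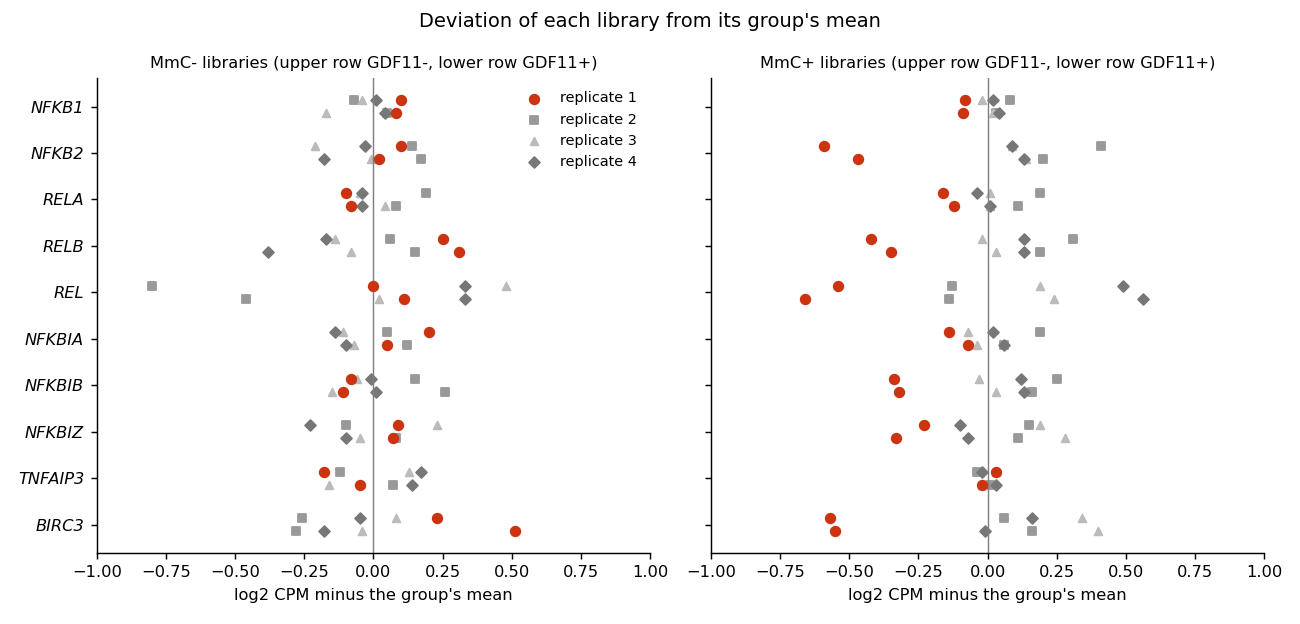
log2 CPM of each library minus its group's mean (x axis) for the 10 members, in the MmC- (left) and MmC+ libraries (right), with GDF11- above GDF11+ for each gene. In the MmC+ groups replicate 1 lies between -0.66 and -0.23 for NFKB2, RELB, REL, NFKBIB, NFKBIZ and BIRC3, and TNFAIP3 stays near 0.

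The other genes of the pathway, 98 in 7 lists of which 86 passed the filter and 52 were called in each MmC comparison, are given by their role. Calls in either direction were made for 5 of 10 kinase genes, 6 of 15 adaptors and 3 of 13 receptors without GDF11 and for 7, 5 and 3 of them with it, to be read against the 45.3% and 46.7% of all genes that were called. Of the 3 other IkB proteins, NFKBIE (IkB-epsilon) and NFKBID (IkB-NS) rose without GDF11, by log2 fold changes of 0.95 (edgeR adjusted p = 5.31e-05) and 0.52 (adjusted p = 0.0102), and with GDF11 by 1.00 and 0.76. BCL3, a nuclear IkB protein, was called lower at -0.29 (adjusted p = 0.0376) without GDF11 and was not called with it, at -0.13. Of 10 genes for the IKK complex and its activating kinases, 3 were higher and 2 lower without GDF11, and 3 higher and 4 lower with it, at medians of -0.12 and -0.03. TAB1, a partner of the kinase TAK1, fell by 0.73 and 0.77 on the log2 scale, its relative TAB3 rose by 0.44 and 0.43, and MAP3K14, the kinase NIK of the non-canonical route, fell by 0.57 and 0.61 (edgeR adjusted p = 0.000818 and 0.000496). MAP3K14 shares 15.1% of its exonic sequence with genes on the other strand. So its transcript was lower in the same comparisons in which NFKB2 and RELB were higher.

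Of 15 adaptors and ubiquitin ligases, 3 were higher and 3 lower without GDF11, and 3 higher and 2 lower with it. TRAF1, an adaptor that binds TRAF2 and the cIAPs, rose by log2 fold changes of 1.11 and 1.06. TRAF3, which holds NIK down, rose by 0.60 and 0.56, and IRAK4, the kinase next to MYD88, fell by 0.60 and 0.62. Among 14 other negative regulators 8 were higher and 1 lower without GDF11, and 7 higher and 2 lower with it. Of all genes tested 22.9% were called higher and 22.4% lower without GDF11, and 23.4% and 23.3% with it. TNIP3, an A20-binding protein, rose by 3.13 and 3.39, ZC3H12A, an RNase that degrades inflammatory mRNAs, by 3.00 and 3.13, and IRAK3, a brake on the IRAK kinases, by 1.76 and 1.72. The level of ZC3H12A was 11.7 ± 1.11 CPM in MmC-/GDF11- and 93.1 ± 23.2 CPM in MmC+/GDF11- (SD, n = 4), and all adjusted p-values of these named genes were under 0.05.

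Of 10 ligand genes 5 passed the filter and 3 were called, all higher, in each comparison, where 22.9% and 23.4% of all genes were called higher. IL1B rose from 4.52 ± 0.251 to 227 ± 128 CPM without GDF11 (log2 fold change 5.65, edgeR adjusted p = 1.03e-06) and IL1A from 0.883 ± 0.154 to 33.1 ± 15.9 CPM (5.23, adjusted p = 1.07e-06). TNFSF14 (LIGHT) reached 0.594 to 1.42 CPM in MmC+/GDF11- from 0 to 0.117 CPM in MmC-/GDF11-, a difference that rests on few counts. In young cells it stood near or under the filter's minimum count of 10. It was tested because it was high in senescent cells, so its call as higher is not independent of the filter. TNF, LTA and LTB were listed at 0 in all libraries, but 100% of their sequence is repeated on alternate contigs, so these zeros do not show that the genes were silent. Of 15 receptor genes 13 were tested, 2 were higher and 1 lower in each comparison. CD40 rose by log2 fold changes of 1.12 and 1.21, TLR1 by 0.62 and 0.76, and TNFRSF1A, the main TNF receptor, fell by 0.84 and 0.78, from 294 ± 23.6 to 164 ± 39.4 CPM without GDF11.

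Of 31 genes listed as known NF-kappaB targets, 26 were tested, and 22 were called higher and 1 lower in each comparison, with medians of 3.47 and 3.37 against -0.01 over all genes. Among all genes tested 22.9% and 23.4% were called higher, and 22.4% and 23.3% lower. The list was written with earlier results of these data known and is not independent evidence of a direction. SOD2, on this list, had no matched identifier and was not tested. For CCL5, CFB and IER3, 100%, 99.4% and 97.7% of the sequence is repeated on alternate contigs, so low counts there do not show silent genes. CSF2 (GM-CSF) had the highest log2 fold change, 9.30 without and 9.68 with GDF11, from a level of 0.0131 to 0.0725 CPM that rests on few counts. CCL20 had 8.54 and 9.01, likewise from under 0.14 CPM. At such levels CSF2 and CCL20 stood near or under the filter's minimum count of 10 in young cells, so their calls are not independent of the filter. CXCL8 (interleukin 8) rose by 7.44 and 7.45, from 19.8 ± 5.45 to 3431 ± 1643 CPM without GDF11 (edgeR adjusted p = 3.59e-07), with the lowest senescent library at 1011 CPM. GADD45B was the gene called lower, at -0.73 and -0.85. CSF2, CCL20 and CXCL8, all secreted, had larger log2 fold changes than any member, the largest of which was 2.73. They were named because their changes were the largest of their list, so this difference follows in part from the choice.

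**Figure D5:**
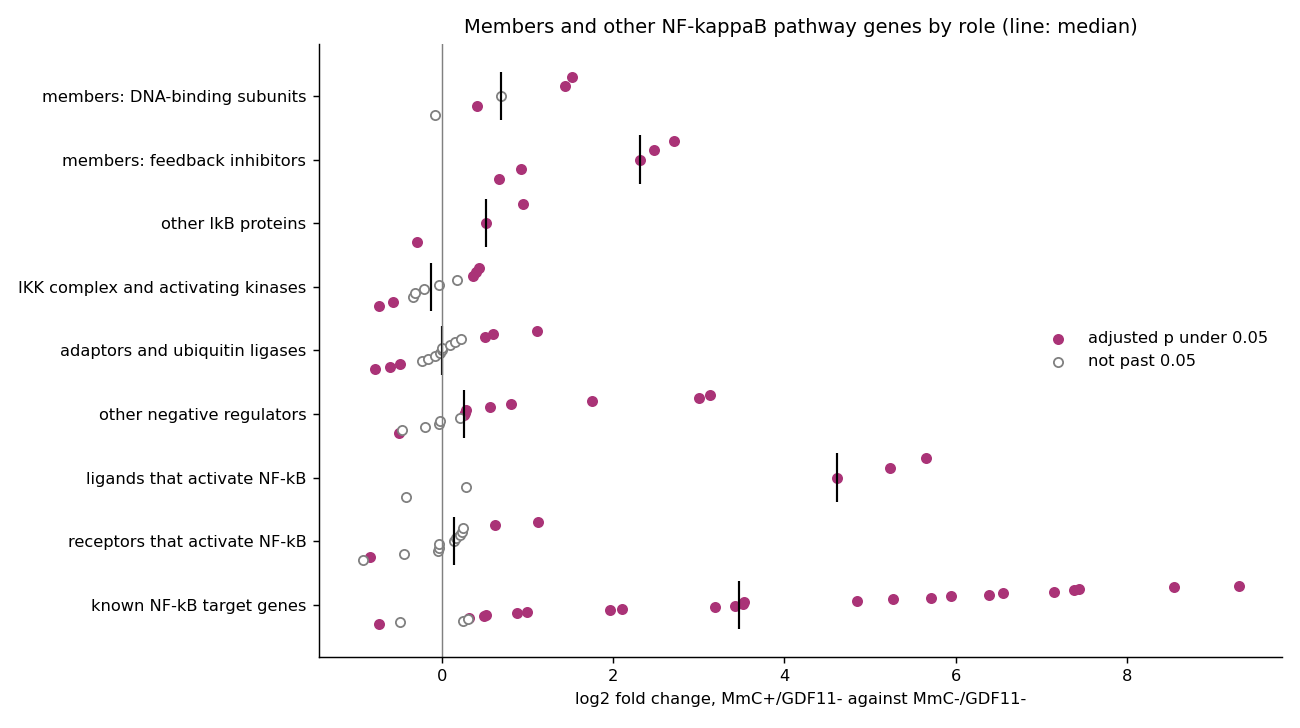
log2 fold change for MmC without GDF11 (x axis) of the tested members and other pathway genes, a point per gene in 9 lists by role, filled where the adjusted p is under 0.05, with the list's median as a line. The medians are 0.69 for the subunits, 2.31 for the inhibitors and feedback genes, 4.61 for the ligands and 3.47 for the targets, and near 0 for kinases, adaptors and receptors. The median of the ligands is the value of TNFSF14, which rests on few counts.

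The genes whose profile over the 16 libraries was most like that of the 3 members with the largest change were sought among 10958 protein-coding genes, by the root mean square difference of centred log2 CPM. For BIRC3 they were SERPINE2 (0.177), INHBA (0.205) and SIRPB1 (0.227). For TNFAIP3 they were H2BC21 (0.182), H2BC5 (0.185) and PAMR1 (0.188), and for NFKBIZ they were ST3GAL1 (0.194), H2BC21 (0.204) and CCL26 (0.221). The log2 fold changes of these genes for MmC without GDF11 lay between 2.23 and 2.86. The search compared profiles that hold the MmC difference, so changes close to those of the members follow from it.

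GDF11 was compared with its absence in young and in senescent MSCs to see whether the cytokine changed the members. None of the 10 was called in either comparison (edgeR), where 0% of all genes were called, and none had an unadjusted p under 0.05 in edgeR, DESeq2 or limma-voom. At an unadjusted p under 0.05 stood 226 genes (1.18%) in young and 96 (0.503%) in senescent MSCs, and DESeq2 called 1 gene in young and 0 in senescent cells. In young MSCs the log2 fold changes of the members lay between -0.20 (NFKBIZ, 95% interval -0.49 to 0.08) and 0.11 (REL, -0.53 to 0.74). In senescent MSCs they lay between -0.07 (NFKB2, -0.45 to 0.30) and 0.09 (REL, -0.53 to 0.72). The narrowest intervals were those of NFKB1, -0.23 to 0.09 in young and -0.18 to 0.13 in senescent cells, and of TNFAIP3, -0.18 to 0.19 and -0.24 to 0.13. All intervals given here come from the fit without the replicate block. For no member did the GDF11+ and GDF11- libraries separate, which 0.89% of all genes did in young and 0.503% in senescent cells. The comparisons share their control groups with those of MmC, so the values for a member are not independent of each other.

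The interaction asks whether the MmC difference of a gene depended on GDF11. Its log2 value was largest for NFKBIZ at 0.19 (95% interval -0.21 to 0.59) and for RELB at 0.15 (-0.36 to 0.66), and for the other members it lay between -0.06 (TNFAIP3, -0.32 to 0.20) and 0.06 (NFKBIA, -0.22 to 0.34). The edgeR adjusted p rounded to 1 for each member, 0% of all genes were called, and 172 genes (0.9%) had an unadjusted p under 0.05, none of them a member. DESeq2 and limma-voom called 0 members as well. The widest interval was that of REL, -0.91 to 0.88.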

How the data were processed

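Poly(A) RNA libraries of the 4 groups were sequenced as read pairs. The authors mapped them with HISAT2 2.2.1 (build hg38), assigned them to GENCODE V38 genes with featureCounts 2.0.1 (versions per the submitters' processing notes), and deposited the raw counts of each gene. The library kit keeps strand, and the strand setting of the counting and its treatment of reads with several places are not given in the sources used here, so overlapping and duplicated genes are less certain.

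Counts were analysed with edgeR 4.0.16 in R 4.3.3 by the robust quasi-likelihood test with TMM scaling, filterByExpr (minimum count 10, minimum total 15), all 16 libraries and 1 mean per group. P-values were adjusted by Benjamini-Hochberg over 19103 genes at 0.05. CPM are scaled by TMM. Standard errors are the log2 fold change over the root of the F statistic, and intervals use the t distribution at 95%. The test was tried on simulated data with known changes. The simulated counts were drawn without shared deviations of a replicate, and no result given here rests on that trial.

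Symbols, positions and lengths came from GENCODE v44 (186 identifiers had no match). The table holds no gene length, so canonical transcripts were used, with the union of exons as an alternative chosen after seeing the data. The share of a gene's 31-base words that recur on 261 alternate contigs gave its repeated sequence.

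The members and lists were chosen with earlier results of these data known. Named genes are the 10 members, from each other pathway list the 3 genes with the largest change called in both MmC comparisons without overlap, and for the 3 members that changed most the 3 most alike genes. BIRC2, BCL3, GADD45B and the genes given for missing counts were added after their values were seen.

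Same-numbered libraries were checked for shared deviations from the group means. For the MmC comparison without GDF11 every pair correlated at 0.113 or more, and for the GDF11 comparison of senescent MSCs at 0.448 or more, so same-numbered libraries were read as pairs there. The values given, among them the GDF11 intervals, come from the fit without a block and do not use the pairing. For GDF11 in senescent MSCs no member was called under any of the 17 alternatives, the block among them. The blocked value stands beside a member whose call it changes. For the other pathway genes only the number called with the block is given. For the MmC comparison with GDF11 the correlations were 0.0293 to 0.311 and for GDF11 in young MSCs 0.0982 to 0.504. There the numbers were not taken as pairs. This split rests on the lowest correlation of each comparison, and 0.0982 is close to 0.113. The labels number the replicates without saying that equal numbers belong together, so the pairing is uncertain in every comparison. Alternatives were RLE and upper-quartile scaling, other filters, only the libraries compared, the replicate block, limma-voom (limma 3.58.1), DESeq2 1.42.0, each library left out and replicate 1 left out of every group.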

Additional observations from a re-analysis of the deposited data

Results flagged for a closer look

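NFKB2 in MmC+/GDF11+ replicate 1 stood apart from the other libraries of its group, at 99.6 CPM against 150 to 158 CPM. Its gap to the nearest library was 0.862 of the group's range, over Dixon's 95% critical value for 4 samples. This was the only such library among 40 groups of 4 values (10 members in 4 groups), and chance alone gives about 1 in 20. Without this library the log2 fold change of NFKB2 for MmC with GDF11 was 1.56 (edgeR adjusted p = 3.13e-06), and NFKB2 was called under all 17 alternatives.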

How the results depend on the processing

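The 8 called members were called in the same direction under all 17 alternatives of both MmC comparisons, with ranges such as 1.31 to 1.64 for NFKB2, 1.42 to 1.74 for RELB and 2.59 to 2.95 for BIRC3 without GDF11. The number of members called was 8 or 9, the ninth being REL, which was past the threshold in 5 alternatives without GDF11 (0.70 with the replicate block, 0.71 with DESeq2, 0.82 without any replicate 1) and in 4 with GDF11 (0.64 with the replicate block, 0.70 with DESeq2, 0.88 without any replicate 1). The replicate block, whose pairing the labels do not give, gave 9 members and 65 of the 86 pathway genes without GDF11 and 9 and 63 with it. It called 11066 and 11267 of all 19103 genes, against 8655 and 8926 without the block, so calls rose in general. It changed no other call of a member.

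Values near 0 changed sign. NFKB1 in MmC with GDF11 was 0.01 with upper-quartile scaling, 0.01 with at least 10 counts in every library and 0.02 without any replicate 1. For GDF11 in young MSCs TNFAIP3 was -0.01 with upper-quartile scaling, -0.01 without the filter, -0.004 with at least 10 counts in every library, -0.0002 with only the libraries compared and -0.04 without any replicate 1, and BIRC3 was -0.01 with limma-voom and -0.11 without any replicate 1. Without any replicate 1 NFKBIZ was 0.01 for GDF11 in senescent MSCs, and the interaction was 0.06 for REL, -0.01 for NFKBIA and 0.004 for TNFAIP3. The cause was not tested.

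Leaving out each library in turn gave -0.08 to 0.003 for NFKB1 in MmC with GDF11. For GDF11 in young MSCs it gave 0 to 1 genes called (1 without MmC-/GDF11+ replicate 2, and 1 with DESeq2), NFKB2 -0.12 to 0.01, RELA -0.09 to 0.01, REL -0.10 to 0.27, TNFAIP3 -0.05 to 0.06 and BIRC3 -0.19 to 0.10. For GDF11 in senescent MSCs it gave NFKB1 -0.05 to 0.01, NFKB2 -0.23 to 0.08, RELA -0.08 to 0.03, RELB -0.13 to 0.10, REL -0.11 to 0.28, NFKBIA -0.08 to 0.03, NFKBIB -0.16 to 0.04, NFKBIZ -0.11 to 0.09 and BIRC3 -0.12 to 0.19. For the interaction it gave NFKB1 -0.01 to 0.08, NFKB2 -0.19 to 0.13, RELA -0.04 to 0.10, REL -0.22 to 0.20, NFKBIA -0.01 to 0.13, NFKBIB -0.07 to 0.13, TNFAIP3 -0.11 to 0.002 and BIRC3 -0.14 to 0.22. The interaction has no fit with only the libraries compared. REL has the fewest counts, 110 to 599 in a library. Counting error alone is 9.53% at 110 counts, and the coefficient of variation of its CPM within a group was 21.7% to 34.6%.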
